A study of Mus musculus with 6 samples.

Results

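Among the places in the uterine genome where estrogen receptor alpha (ERα) was called with every ligand tested, 2993 regions also carried an ERα peak in ovariectomized mice that received only vehicle. They were found by merging the peaks of all 6 deposited lists wherever these overlapped by at least 1 bp, which gave 65146 regions. Of these, 15144 held a peak of each of the 4 ligand lists and are called core regions here. The members are the core regions that also held a peak of at least 1 vehicle list. Both vehicle lists had a peak in 459 of them, the AF-2 mutant vehicle list alone in 843 and the wild-type vehicle list alone in 1691. The other 12151 core regions had no vehicle peak and serve as the comparison. Members were chosen by the presence of called peaks in the lists, so that presence is described and not tested.

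The lists come from chromatin immunoprecipitation with an ERα antibody and sequencing (ChIP-seq) of whole uterus from C57BL/6J mice aged 12 weeks. All mice were ovariectomized, which removes the main source of estrogen. The groups were AF-2 mutant (AF2ERKI) mice given ICI (fulvestrant, ICI182780) at 2 mg/kg, AF-2 mutant mice given tamoxifen at 2 mg/kg, wild-type littermates given ICI or tamoxifen at the same doses, and AF-2 mutant and wild-type mice given 50 µl of the DMSO vehicle, all by intraperitoneal injection 1 h before collection. Each group was 1 library from the pooled uteri of 6 mice, so no spread between replicates exists, a difference between groups cannot be told apart from a difference between libraries, and the intervals below cover counting error only. E1h, a code in the sample titles, is not explained by the labels. In pooled whole tissue, a site bound in few cells and a site bound weakly in many cannot be told apart. The lists hold positions only, so neither the tissue nor the genotype could be checked against a marker or the receptor itself.

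ERα is a hormone-activated transcription factor that binds DNA at estrogen response elements or through other factors, and in the uterus it drives growth and secretion in response to estradiol. Its AF-2 surface, in the ligand-binding domain, recruits coactivators once an agonist is bound, while AF-1 near the other end of the protein can act without it. ICI is a steroidal antagonist that also lowers the amount of receptor, and tamoxifen is a nonsteroidal ligand with agonist activity in some tissues and antagonist activity in others. Receptor without ligand is also known to occupy some sites in uterine chromatin, and whether the receptor at the members was free of ligand was not measured.

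Single members show what the lists hold. All positions are in mm9 and count from 1, and each deposited peak is 200 bp wide. The member whose 6 peaks lay closest together, on chromosome 15 at 99618014 to 99618221, had peaks starting at 99618014 with ICI, 99618021 with tamoxifen and 99618016 with vehicle in the mutant, and at 99618015 with ICI, 99618022 with tamoxifen and 99618016 with vehicle in the wild type. The 6 starts thus lay within 8 bp, and those of the vehicle lists were identical. The next closest members, both on chromosome 2, lay at 75185969 to 75186178 and at 158348920 to 158349130, where the 6 starts spanned 10 and 11 bp.

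Other members were built from several peaks of a list side by side. The one with the most peaks, 9 in all, lay on chromosome 13 at 80674966 to 80675591. The mutant had ICI peaks starting at 80674981 and 80675392 and tamoxifen peaks starting at 80674966 and 80675388, and its vehicle peak, starting at 80675154, lay between them. In the wild type, tamoxifen peaks started at 80674972 and 80675349, the only ICI peak started at 80675378 and the vehicle peak at 80674969. The wild-type vehicle peak therefore lay at the left group of ligand peaks and the mutant vehicle peak between the left and the right group. Such regions were rare. Only 6 of the 2993 members held more than 1 peak of any list, namely 4 with both vehicle lists, 1 with the mutant list alone and 1 with the wild-type list alone, against 2 of the 12151 core regions without a vehicle peak. A vehicle peak can itself join neighbouring ligand peaks into 1 region, so the merging rule favours members in this count. At the member on chromosome 13, only the mutant vehicle peak joined the left and the right group.

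Of the members with the mutant vehicle peak alone, the one with the most peaks lay on chromosome 18 at 55233400 to 55233984. Its mutant vehicle peak started at 55233400, near a mutant ICI peak at 55233441. A further mutant ICI peak started at 55233785, the mutant tamoxifen peak at 55233755, the wild-type ICI peak at 55233559 and the wild-type tamoxifen peak at 55233775. Of those with the wild-type vehicle peak alone, the one with the most peaks, 8, lay on chromosome 1 at 186605822 to 186606405, with the vehicle peak starting at 186606195. With 1 peak of each of its lists, as in nearly all members, and a ligand spread of 11 bp, below the median of its class, there was the member on chromosome 1 at 7145105 to 7145315. There the mutant ICI and tamoxifen peaks started at 7145105 and 7145116, and the wild-type ICI, tamoxifen and vehicle peaks at 7145113, 7145111 and 7145113.

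**Figure D1:**
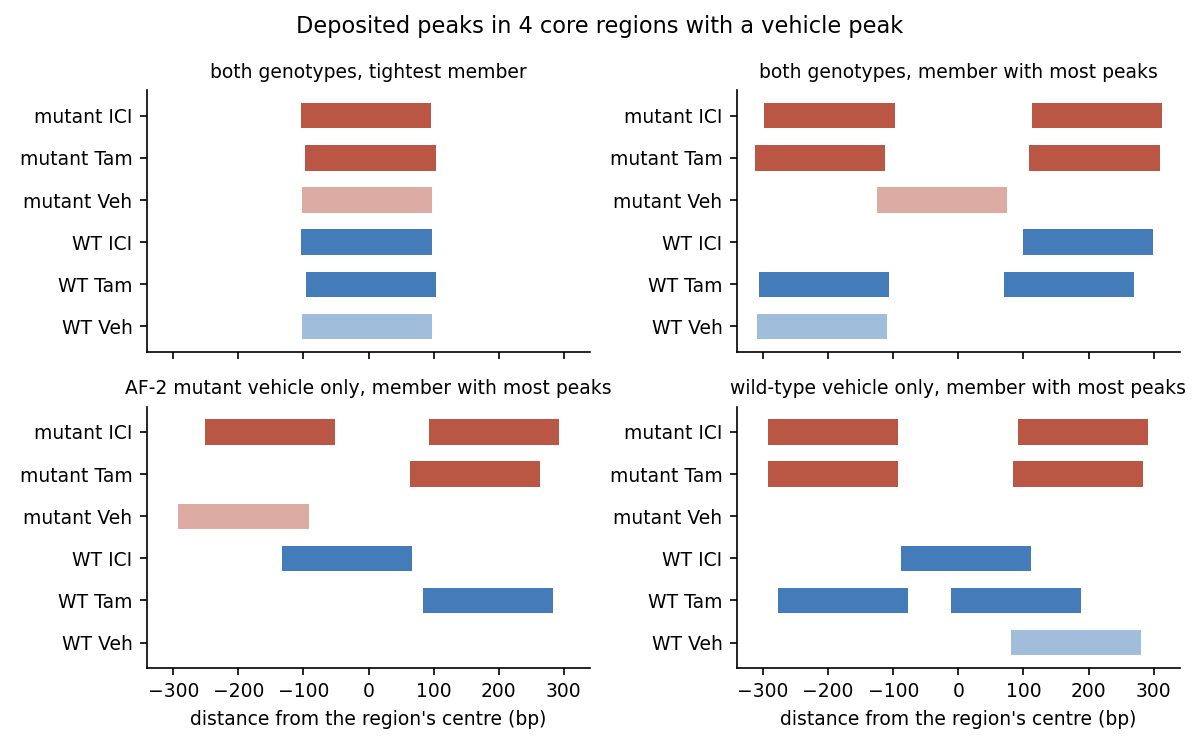
Deposited 200 bp peaks of each list (rows) in 4 members, drawn to scale against the distance in bp from the region's centre; mutant lists are red, wild-type lists blue, and vehicle lists paler. The 6 peaks of the tightest member coincide within 8 bp, whereas in the member with 9 peaks the mutant vehicle peak lies between a left and a right group of ligand peaks.

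Vehicle peaks became more frequent with the number of ligand lists that had a peak in the region, and the increase was steeper for the wild-type vehicle list. A peak of either vehicle list was found in 9.51% of all 63548 regions with a ligand peak, and in 3.70%, 7.41%, 10.1% and 19.8% of regions held by 1, 2, 3 and 4 ligand lists. Of all regions with a ligand peak, 5.87% held a mutant vehicle peak and 5.21% a wild-type one. By number of ligand lists, the shares for the mutant vehicle list were 2.93%, 6.16%, 7.72% and 8.60%. For the wild-type vehicle list they were 1.17%, 2.29%, 4.99% and 14.2%. Up to 3 ligand lists the mutant vehicle peak was the more frequent one, and in the core the wild-type one was. The 95% intervals in the core were 8.16 to 9.06% for the mutant and 13.6 to 14.8% for the wild type. These shares include the values that define the members and carry no test.

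**Figure D2:**
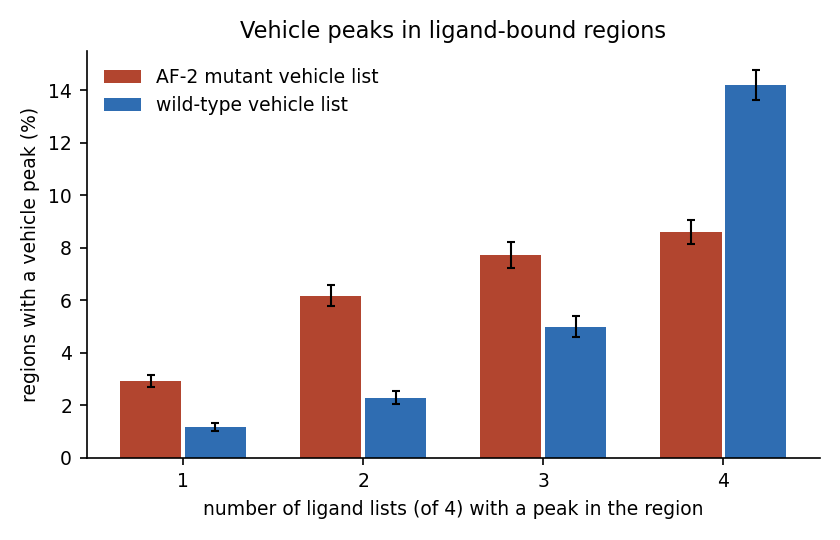
Share of merged regions (%) that hold a peak of the mutant vehicle list (red, left) or the wild-type vehicle list (blue, right), by the number of ligand lists with a peak in the region; error bars are exact 95% binomial intervals. The wild-type share is lower than the mutant one at 1 to 3 ligand lists and higher at 4.

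Seen from the vehicle lists, core regions took up a much smaller share of the mutant list. Of the 5027 regions of the mutant vehicle list, 1302 were core regions, or 25.9% (24.7 to 27.1), while 1294 had no ligand peak at all. Of the 3712 regions of the wild-type vehicle list, 2150 were core regions, or 57.9% (56.3 to 59.5), and 400 had no ligand peak. Over all 65146 merged regions, 15144 were core regions. The mutant vehicle list was the longer one, and the part of list length in this difference was not tested. Within the core, 35.3% (32.7 to 37.9) of the regions with a mutant vehicle peak also held a wild-type one, and 21.3% (19.6 to 23.1) of the regions with a wild-type vehicle peak also held a mutant one. In the ligand-bound regions outside the core, these shares were 22.3% (20.6 to 24.0) and 46.6% (43.7 to 49.5), in the same order. Both shares of a setting count the same regions, 459 in the core and 541 outside it. Which share is the larger therefore only restates the numbers of mutant and wild-type vehicle regions. These were 1302 and 2150 in the core, and 2431 and 1162 outside it.

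Regions that missed the core by a single ligand list differed, by their vehicle class, in which list they lacked. With a vehicle peak and 3 of the 4 ligand lists there were 1139 regions, and 66.2% of them (63.4 to 68.9) lacked the wild-type ICI list, which is the shortest ligand list, against 67.8% (66.8 to 68.7) of the 10169 such regions without a vehicle peak. Among the 575 with a mutant vehicle peak alone, 91.0% (88.3 to 93.2) lacked a wild-type list and 9.04% a mutant one. Among the 266 with a wild-type vehicle peak alone, 51.1% (44.9 to 57.3) lacked a wild-type list and 48.9% a mutant one. The 298 with both vehicle peaks were like those with the mutant one alone only in the genotype of the missing list. Of them, 92.6% (89.0 to 95.3) lacked a wild-type list and 7.38% a mutant one. The wild-type ICI list was missing in 86.6% of them (82.2 to 90.2), against 64.5% (60.5 to 68.4) with the mutant vehicle peak alone. Without a vehicle peak, 81.9% (81.2 to 82.7) lacked a wild-type list. The mutant tamoxifen list was the missing one in 3.48% of regions with a mutant vehicle peak alone and in 38.0% of those with a wild-type vehicle peak alone, and the wild-type tamoxifen list in 26.4% and 4.14%. With both vehicle peaks, the mutant tamoxifen list was missing in 2.01% and the wild-type tamoxifen list in 6.04%.

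The vehicle classes differed in how closely the ligand peaks coincided. For each core region the spread was taken as the distance between the outermost of the 4 ligand peak centres. Vehicle peak centres do not enter it, but a vehicle peak can join ligand peaks into 1 region and so widen it, as at the member on chromosome 8 at 48799087 to 48799684, where a mutant ICI peak was linked to the other ligand peaks only through the vehicle peaks. With the ligand lists merged alone, the medians were 38 bp with the mutant vehicle peak alone, 20 bp with the wild-type one alone and 29 bp without a vehicle peak. The spread had a median of 25 bp over all members (95% interval of the median 24 to 26) and of 29 bp over core regions without a vehicle peak (28 to 29). This small difference hid opposite ones. With the mutant vehicle peak alone the median was 39 bp (36 to 41), with both 35 bp (31 to 39), and with the wild-type vehicle peak alone 20 bp (19 to 21). The ligand centres lay within 20 bp in 21.4%, 27.7% and 52.2% of these members, in the same order, against 30.9% of core regions without a vehicle peak. They were over 60 bp apart in 27.3%, 25.5% and 6.68%, against 13.7%. The members at the upper end were the one on chromosome 19 at 36483859 to 36484534 with 476 bp (mutant vehicle alone), the one on chromosome 2 at 68309869 to 68310408 with 340 bp (both) and the one on chromosome X at 155692112 to 155692691 with 380 bp (wild-type vehicle alone).

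**Figure D3:**
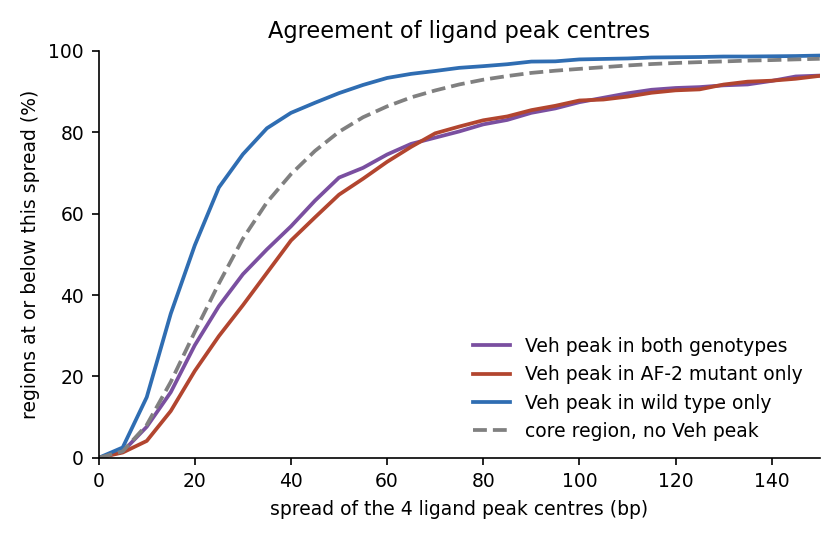
Cumulative share of core regions (%) by the spread of their 4 ligand peak centres in bp, for members with a vehicle peak in both genotypes (purple), in the AF-2 mutant only (red) and in the wild type only (blue), and for core regions without a vehicle peak (grey, dashed). Members with the wild-type vehicle peak alone lie to the left of the dashed line and those with a mutant vehicle peak mostly to its right.

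With each of the 4 lists left out of the spread in turn, the median was 25 to 33 bp with the mutant vehicle peak alone, 12 to 17 bp with the wild-type vehicle peak alone, and 18 to 24 bp without a vehicle peak, and the order was kept each time. These alternatives were chosen after the data were seen. Between ICI and tamoxifen in the mutant, the median distance of the peak centres was 14 bp with the mutant vehicle peak alone, 8 bp with the wild-type vehicle peak alone and 11 bp without a vehicle peak. Between ICI and tamoxifen in the wild type it was 21, 12 and 16 bp. Thus the wild-type ligand peaks were also farther apart at members with the mutant vehicle peak alone. The same distances were smaller in the core than in regions of fewer lists. Where the mutant ICI and tamoxifen lists were the only ligand lists, their centres were 22 bp apart at the 545 regions with a mutant vehicle peak alone (20 to 25) and 16 bp apart at the 6235 without a vehicle peak (16 to 17). Where wild-type ICI and tamoxifen were the only ligand lists, the median was 18.5 bp at the 100 regions with a wild-type vehicle peak alone (14 to 23) and 24 bp at the 1846 without (22 to 25). Outside the core, the median distance of the mutant peaks was not smaller with a wild-type vehicle peak than the 16 and 13 bp without a vehicle peak. Between mutant ICI and tamoxifen the median was 16 bp at the 20 regions with a wild-type vehicle peak alone and no other ligand list (10 to 27). With 1 wild-type ligand list beside them it was 15.5 bp at 136 regions with a wild-type vehicle peak alone (12 to 20) and 13 bp at 8331 without a vehicle peak (12 to 13). Wild-type ICI and tamoxifen centres were 41 bp apart at 23 regions with a mutant vehicle peak alone and no further ligand list. That interval, 20 to 66 bp, covers the 24 bp without a vehicle peak. With 1 mutant ligand list added, the median was 47.5 bp at 52 regions with a mutant vehicle peak alone (23 to 57). It was 22 bp at 1838 regions without a vehicle peak (21 to 23).

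Grouping all core regions by spread gave the same picture from the other side. Of 5 groups of nearly equal size, the one with the tightest ligand centres (1 to 15 bp) had a mutant vehicle peak in 5.63% of regions (4.84 to 6.51) and a wild-type one in 22.2% (20.7 to 23.7). In the group with the widest (52 to 476 bp), 14.9% had a mutant vehicle peak (13.6 to 16.2) and 10.5% a wild-type one (9.43 to 11.7). The mutant share went up at each step, through 6.49%, 7.06% and 9.17%. The wild-type share went down through 17.1% and 11.7% to 9.46% in the group next to the widest, and the intervals of those last groups overlapped. Members with both vehicle peaks made up 2.44% of the tightest group and 4.80% of the widest.

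**Figure D4:**
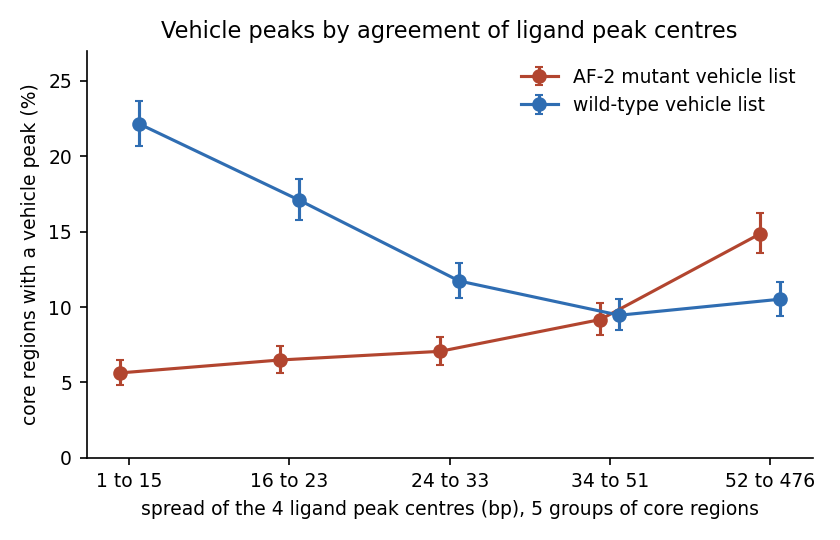
Share of core regions (%) with a mutant (red) or wild-type (blue) vehicle peak, in 5 groups of core regions of nearly equal size ordered by the spread of their 4 ligand peak centres (bp); error bars are exact 95% binomial intervals. The mutant share increases with the spread to 14.9% and the wild-type share decreases from 22.2%, the lines meeting in the group next to the widest.

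Mutant vehicle peaks were centred farther from the ligand peaks than wild-type vehicle peaks were. Mutant vehicle peaks had their centre a median of 31 bp (28.8 to 34) from the mean centre of the 4 ligand peaks, and 33.4% of them were more than 50 bp away. Wild-type vehicle peaks were 13 bp away (12.3 to 13.8), with 11.6% beyond 50 bp. For comparison, each ligand peak in the members was set against the mean centre of the other 3. The medians were 9.33 bp for mutant ICI, 9 bp for mutant tamoxifen, 13.7 bp for wild-type ICI and 8.67 bp for wild-type tamoxifen. These ligand medians cover all members, whereas each vehicle median covers only members with that vehicle peak. With the wild-type vehicle peak alone, the median was 11.3 bp for wild-type vehicle peaks and 11 bp for wild-type ICI peaks. With both vehicle peaks these medians were 26 and 19.3 bp. With the mutant vehicle peak alone, the median was 33.3 bp for mutant vehicle peaks and 13.7 to 21 bp for the 4 ligand lists.

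At the 459 members with both vehicle peaks, the distances of the mutant and wild-type vehicle peaks differed by less than their intervals. The mutant vehicle peaks were centred 27.8 bp (24.8 to 32) and the wild-type vehicle peaks 26 bp (21.8 to 30.3) from the ligand centre, and the vehicle peaks were 26 bp from each other. Where each genotype's vehicle peak stood alone, the median was 33.3 bp (30 to 36) for the mutant and 11.3 bp (10.5 to 12) for the wild type. The vehicle lists thus differed beyond the intervals where each stood alone, and within them where they shared a region.

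Members had somewhat fewer core regions around them than the rest of the core. Another core region lay within 10 kb, centre to centre, of 29.5% of members (27.8 to 31.1) and of 33.8% of core regions without a vehicle peak (32.9 to 34.6). The share was 31.4% with the mutant vehicle peak alone (28.3 to 34.7), 28.8% with both (24.7 to 33.1) and 28.7% with the wild-type vehicle peak alone (26.5 to 30.9). In windows of 100 kb, 22.3% of core regions that were alone in their window had a vehicle peak (21.1 to 23.5), and 17.1% of those in windows with 5 or more core regions (15.6 to 18.7). In windows with 1, 2, 3 to 4 and 5 or more core regions, the share with a wild-type vehicle peak was 16.4%, 14.5%, 13.0% and 11.5%. The share with a mutant one was 9.52%, 8.66%, 7.66% and 8.41%, and so did not fall at each step.

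Further ligand peaks near the members differed by genotype as well. Within 10 kb and outside the region itself, members with the mutant vehicle peak alone had 129 mutant ICI and 109 mutant tamoxifen peaks per 100 regions. Members with the wild-type vehicle peak alone had 96.2 and 76.4, and core regions without a vehicle peak 120 and 99.0. Wild-type ligand peaks varied less. With ICI there were 58.1, 56.7 and 64.8 per 100 regions in these same classes, and with tamoxifen 85.6, 89.2 and 96.1. The share of regions with any further mutant tamoxifen peak was 62.2% with the mutant vehicle peak alone (58.8 to 65.4), 48.2% with the wild-type vehicle peak alone (45.8 to 50.6) and 57.3% without a vehicle peak (56.4 to 58.2). A further mutant vehicle peak lay within 10 kb of 14.9% (12.6 to 17.5), 7.69% (6.46 to 9.06) and 10.3% (9.74 to 10.8) of them, and a further wild-type vehicle peak within 10 kb of 9.13%, 7.75% and 7.46%, with intervals that overlapped.

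**Figure D5:**
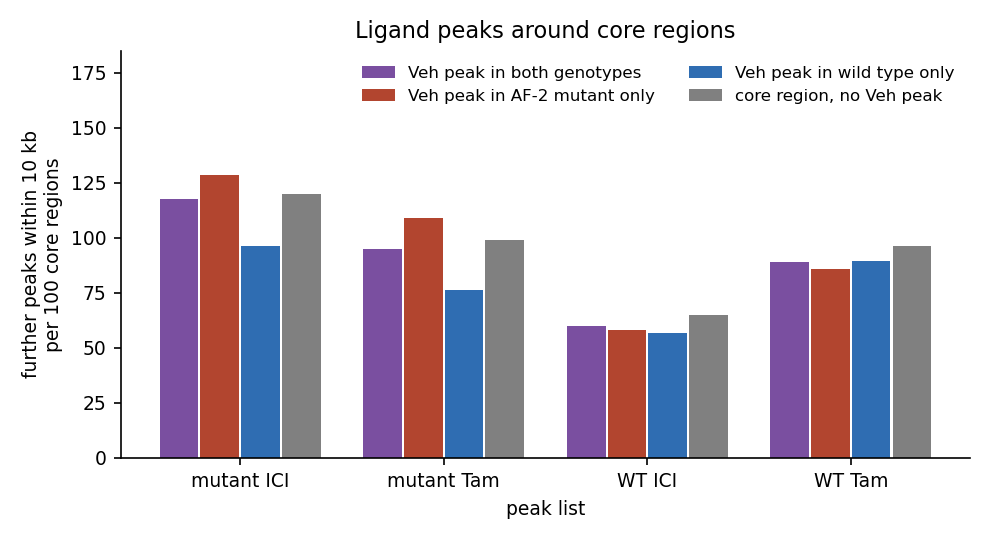
Further ligand peaks within 10 kb of core regions, outside the region itself, per 100 regions for each ligand list, by vehicle class (purple both, red AF-2 mutant only, blue wild type only, grey no vehicle peak). The classes differ more in the mutant lists (96.2 to 129 for mutant ICI) than in the wild-type lists (56.7 to 64.8 for wild-type ICI).

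Members were spread over all chromosomes, and most of them stood alone in their window of 100 kb. They made up between 16.5% of core regions on chromosome 11 (174 of 1056) and 23.2% on chromosome 8 (212 of 912). On the X chromosome they were 66 of 288, or 22.9%. None of the 7 core regions on unplaced sequence was a member. Of the windows of 100 kb, 2260 held a single member, 289 held 2, 39 held 3, 8 held 4 and 1 held 6. That window, on chromosome 2 at 172400001 to 172500000, had 7 core regions, and its 6 members were 1 with both vehicle peaks, 3 with the mutant and 2 with the wild-type one alone. The next by position among those with 4 members lay on chromosome 3 at 101400001 to 101500000, where all 4 core regions were members, and on chromosome 5 at 120000001 to 120100000, where 4 of 9 were and all 4 held both vehicle peaks.

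Few members lay at the edge of the rule. The smallest overlap that linked neighbouring peaks was under 20 bp in 38 members, down to 1 bp on chromosome 8 at 48799087 to 48799684, and had a median of 181 bp. Just outside, 151 core regions without a vehicle peak had one that began or ended within 200 bp, and at 75 of the 1139 regions with a vehicle peak and 3 ligand lists a peak of the missing list lay within 200 bp.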

How the data were processed

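ERα ChIP-seq peak lists of 6 libraries, 1 per combination of genotype and treatment, were used as the authors deposited them. The deposited values are positions (chromosome, start, end) on mm9, with no height, score or p-value per peak, so peaks could not be ranked and read depth is unknown. HOMER 4.10.3, Bowtie2 2.1.0, bedtools 2.24.0, Picard and SAMtools are named in the submitters' processing notes without their roles. The sources used here do not give how peaks were thresholded, filtered or set against input. List lengths, and hence which regions reach the core, depend on these and on depth.

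Peaks were merged in pandas 2.3.3 with scipy 1.17.1 and numpy 2.4.6 (Python 3.11.15), and the 65146 regions matched those of bedtools 2.31.1, with 0 differing. A peak's centre is its midpoint. Where a list had several peaks in a region, their mean was used. Shares have exact (Clopper-Pearson) 95% binomial intervals and medians exact 95% order-statistic intervals. Both treat regions as independent, although neighbouring regions are not, and cover counting error only. With 1 library per group no test was made. The counting was tested on simulated lists. Single regions were chosen by most peaks per vehicle class, closest peak centres and most members per window of 100 kb, and those named for the smallest overlap or the widest spread were picked after their values were seen. The members and rules were chosen with earlier results of these data known. Sequences, genes and estrogen response elements were not analysed here, since no mm9 sequence or annotation was used.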

Additional observations from a re-analysis of the deposited data

Results flagged for a closer look

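The spread of the ligand peak centres moved in opposite directions where the vehicle peak of each genotype stood alone. Relative to core regions without a vehicle peak, the median was 10 bp higher at members with the mutant vehicle peak alone, and the difference was -9 bp at members with the wild-type vehicle peak alone. At members with both vehicle peaks the median was 35 bp (31 to 39), against 29 bp without a vehicle peak (28 to 29). The difference between genotypes was not tested, since each vehicle list comes from 1 library. The mutant vehicle list was also the longer one, with 5027 peaks against 3712, and its part in the result was not tested.

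Around the members, within 10 kb and outside the regions themselves, mutant ICI peaks were 1.23 times as many as mutant tamoxifen peaks. Wild-type ICI peaks were 0.652 times as many as wild-type tamoxifen peaks. This was not tested either, and it is close to the background: the ratios were 1.21 for the mutant and 0.674 for the wild type around core regions without a vehicle peak, and 1.25 and 0.709 in the whole lists.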

How the results depend on the processing

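Counts of members and vehicle classes were recomputed under each alternative of merging, overlap, chromosomes and required lists. The spread of ligand centres and the share with a neighbouring core region were recomputed under those of merging, peaks per list and chromosomes, and not under direct overlap or required lists. Counts stayed within 1.5 times, except that members with both vehicle peaks numbered 717 when wild-type ICI was not required, against 459. The share of core regions with a vehicle peak, 19.8%, was 18.8% with a merging overlap of 100 bp, 20.9% with peaks up to 200 bp apart merged, and 16.4%, 18.9% and 18.6% without the requirement of wild-type ICI, wild-type tamoxifen and mutant tamoxifen. With peaks up to 200 bp apart merged, the median spread was 27 bp in members and 30 bp without a vehicle peak. Over 3 ligand lists it was 21, 21, 15 and 21 bp in members, and 24, 24, 18 and 24 bp without a vehicle peak, leaving out mutant ICI, mutant tamoxifen, wild-type ICI and wild-type tamoxifen in turn, smaller by construction. Leaving out lists and merging the ligand lists alone were chosen after seeing the data. In the latter there were 2978 members. Within 50 kb, 66.2% of members and 71.9% of core regions without a vehicle peak had another core region. A stricter peak threshold could not be tried, as the lists hold no scores, and the planned shares with an estrogen response element or near a transcription start were not run. No paired analysis was possible because each group has 1 library and the labels give no replicate numbers. Signal below the authors' threshold is not in the lists, so a region without a vehicle peak is not shown to be unbound.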
